A study of Mus musculus with 3 samples.

Results

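The nuclear genes of oxidative phosphorylation were described in RNA from 3 pools of cells taken from mouse dura mater, the tough outermost of the meninges. They were chosen by symbol alone, as the protein-coding genes whose names mark subunits of respiratory chain complexes I to IV (Nduf with a letter and a digit, Sdha to Sdhd, Uqcr, and Cox4 to Cox8) or of the ATP synthase, also called complex V (Atp5). The rule found 85 of the 54532 gene identifiers in the files, under 84 symbols, because Atp5o has a second identifier (ENSMUSG00000116933) that had 0 reads in every library. By complex these were 35 genes of complex I, 4 of complex II, 8 of complex III, 20 of complex IV and 18 of complex V. Ndufa4 and Ndufa4l2, whose products are now placed with complex IV, and the supercomplex factor Cox7a2l were counted there. All 85 are nuclear, and the 13 genes encoded in mitochondrial DNA and the assembly factors are described beside them.

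The respiratory chain sits in the inner mitochondrial membrane. Complexes I and II take electrons from NADH and succinate, complex III passes them through cytochrome c to complex IV, which reduces oxygen, and the proton gradient that complexes I, III and IV build drives ATP synthesis by complex V. Apart from complex II, which is wholly nuclear, each complex is assembled from subunits of both genomes. Endothelial cells, which line blood and lymph vessels, are known for drawing much of their energy from glycolysis.

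The labels describe meningeal cells negative for CD45 and positive for CD31 and podoplanin, a combination used for lymphatic endothelium, and do not say how they were selected. All 3 groups were mice carrying the dural metastasis model 4T1-DM (4T1 is a mouse mammary carcinoma line), so a dura without tumour cells was not analysed here. The groups differed by treatment, which was PBS, ZOL or ZOL+Ang2, and the labels do not spell out ZOL or Ang2. Dorsal dura was collected on day 12 of the model, and each library is a pool of 6 mice. No strain or age of the mice was at hand. Where 3 values are given together, they stand in the order PBS, ZOL and ZOL+Ang2. With 1 library per group there was no replicate error and no test was possible, so each difference below compares 3 libraries and not the animals behind them.

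The reads recovered from the deposited values numbered 1675532, 16586760 and 9204901, so counting error was largest in PBS. For 6 of the genes (Cox7a2l, Cox8a, Ndufa7, Ndufs8, Ndufv1 and Ndufv3) they did not come out whole in every library and were rounded. Markers of the labelled cells were uneven. The 7 lymphatic endothelial markers summed to 275, 175 and 218 CPM (read counts scaled to a common library size). Pdpn, which encodes podoplanin, had 35, 1059 and 1496 reads, and Flt4, the receptor for lymphatic growth factors, had 1, 1113 and 209 reads. Reln had 185, 135 and 69 reads and Mmrn1 288, 181 and 105 reads, so both were highest in PBS by CPM. Prox1, the transcription factor that defines lymphatic endothelium, had 2, 0 and 0 reads, and Lyve1, a lymphatic receptor, had 0 in all 3. Ccl21a is listed under 2 identifiers, which had 0, 175 and 34 reads and 0, 80 and 0 reads. Pecam1, which encodes CD31, had 2, 7454 and 1556 reads. Summed levels were 1925, 3523 and 1717 CPM for 12 endothelial markers, 1865, 141 and 2471 CPM for 14 leukocyte markers, 191, 7.20 and 25180 CPM for 7 erythroid markers, and 592, 5394 and 5050 CPM for 10 carcinoma and epithelial markers. The 8 fibroblast markers summed to 349.8, 976 and 11350 CPM. Markers of mural cells (the smooth muscle and pericytes of vessel walls), 7 in number, summed to 2.69, 851 and 378 CPM. The 8 proliferation markers summed to 95.8, 1231 and 870 CPM. In pooled cells, fewer cells of a type and less RNA per cell cannot be told apart, and the part of these markers in the results below was not tested.

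Nuclear oxidative phosphorylation genes took 0.676%, 1.70% and 1.56% of all reads, or 6097, 17995 and 16390 CPM summed over the 85 genes. The 13 mitochondrially encoded genes went the other way, with 69127, 6807 and 4418 CPM, so the nuclear sum was 0.0882, 2.64 and 3.71 times the mitochondrial one. Thus ZOL and ZOL+Ang2 stood close together and PBS stood apart on both sums.

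Levels of different genes were compared per length, as RPKM, a read count divided by exon length and library size. The median over the 76 genes that averaged 10 CPM or more was 50.8, 69.0 and 76.1 RPKM. The PBS levels were more scattered: the range holding the middle 50% spanned 2.85 log2 units in PBS, against 1.64 and 1.73 in the others. Of the 21995 protein-coding genes ranked by RPKM, the top 1000 held 37, 58 and 54 of the 76 genes. Cox6a1, a small nuclear subunit of cytochrome c oxidase (complex IV), was among the 5 highest in every library with 565, 485 and 659 RPKM, and so was Cox4i1, its largest nuclear subunit in the broadly expressed form, with 386, 328 and 393 RPKM. Cox8a, another small subunit, led in ZOL and ZOL+Ang2 with 154, 793 and 709.9 RPKM. In PBS the 5 highest also included Cox6b1 with 480.3, 280.0 and 327 RPKM, Ndufa2, an accessory subunit of the complex I matrix arm, with 406, 237 and 226 RPKM, and Cox7a2l with 363, 216 and 217 RPKM.

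The order of the 76 genes by RPKM was shared between ZOL and ZOL+Ang2 (Spearman's rho 0.88 across genes) more than between PBS and ZOL (0.59) or PBS and ZOL+Ang2 (0.50). Over all 10942 genes compared the same values were 0.69, -0.11 and -0.09. Both sets were kept by their mean CPM over these 3 libraries, which drops genes low in all of them and can pull such values down. How far this moved each value was not tested. Genes are not independent replicates and these values describe 3 libraries.

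**Figure D1:**
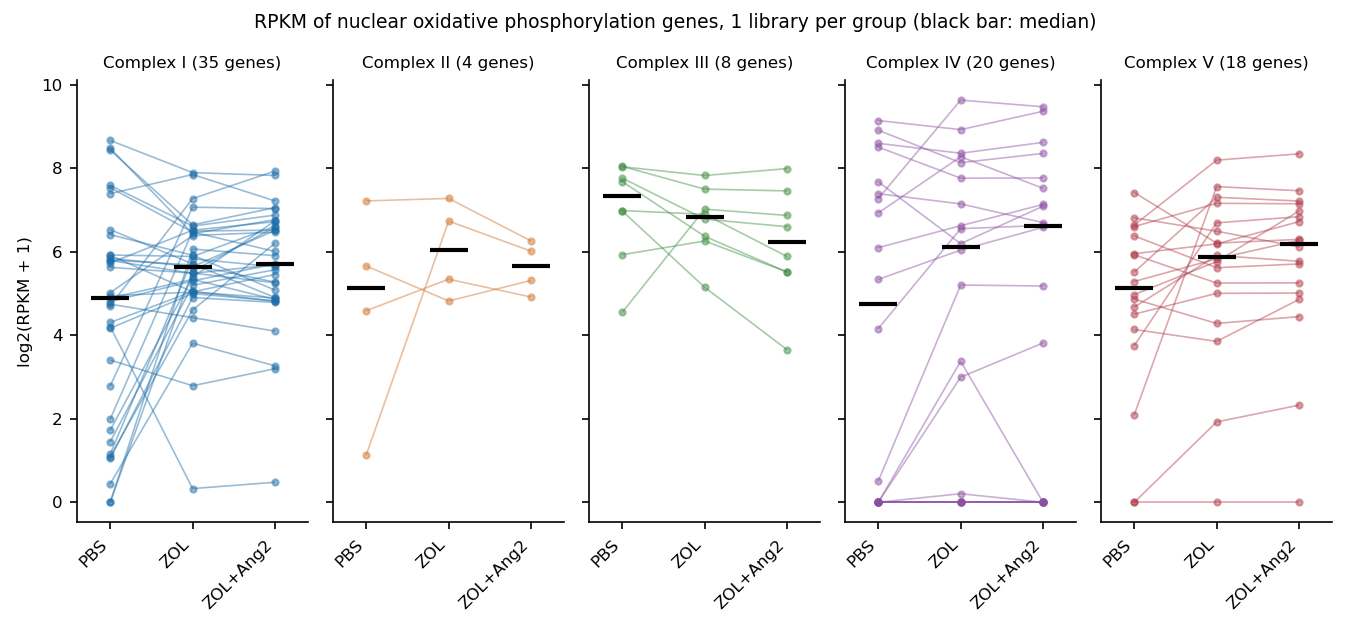
Levels of the 85 genes by complex, as log2(RPKM + 1) on the vertical axis, in the 3 libraries on the horizontal axis. Each line is 1 gene and each black bar the median of the complex; the lines of complexes I, II, IV and V fan out towards low values in PBS, while the medians of complex III are 165, 114 and 77.1 RPKM.

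Comparisons between libraries use the log2 ratio of CPM with 5 CPM added to both, less the median log2 ratio of all genes compared, and this is called the relative log2 fold. That median was 0.94 for ZOL against PBS, -0.02 for ZOL+Ang2 against ZOL and 0.48 for ZOL+Ang2 against PBS. A gene is counted as higher or lower where the relative fold reached 2-fold, as a description and not a call. Ratios quoted with a range are plain CPM ratios with an exact 95% binomial interval, which covers counting error only.

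In ZOL against PBS, 26 of the 76 genes were at least 2-fold higher, 5 were at least 2-fold lower and 45 lay within 2-fold. Of all 10942 genes compared, 38% were at least 2-fold higher and 37.9% at least 2-fold lower, so 59.2% of these genes lay within 2-fold against 24.1% of all. Their share of higher genes was near the background and their share of lower genes, 6.58%, was far under it. The background was not matched for level, and with a filter of 50 CPM it was 37.0% higher and 33.5% lower. The median relative log2 fold was 0.60. Without subtracting the all-gene median, 50 of the 76 were higher and 1 lower, against 49.2% and 29.4% of all genes compared. Among only the genes past 2-fold, 62.6% were then higher instead of 50.04%.

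In ZOL+Ang2 against ZOL, 3 genes were at least 2-fold higher, among them Ndufa12 and Atp5k, 3 were at least 2-fold lower (Uqcrc2, Uqcrc1 and Sdhd), and 70 lay within 2-fold. The background was 16.5% higher and 24.6% lower, so 92.1% of these genes lay within 2-fold against 58.9% of all genes compared. That background was not matched for level. With a filter of 50 CPM, 15.6% of all genes were higher and 17.9% lower. The median relative log2 fold was -0.14, and it ranged from -0.16 to 0.20 over the alternative settings, so it has no stable sign. Scaling moved the split: with median-of-ratios factors 5 were higher and 1 lower, and with upper-quartile factors 7 were higher and 1 lower. Of all genes compared, 17.2% were higher and 19.4% lower with the former factors, and 22.2% and 19.2% with the latter.

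The comparison of ZOL+Ang2 with PBS shares a library with each of the other comparisons. There 38 of 76 were at least 2-fold higher and 4 lower, against 39.1% and 36.9% of all genes compared, with a median relative log2 fold of 0.96.

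**Figure D2:**
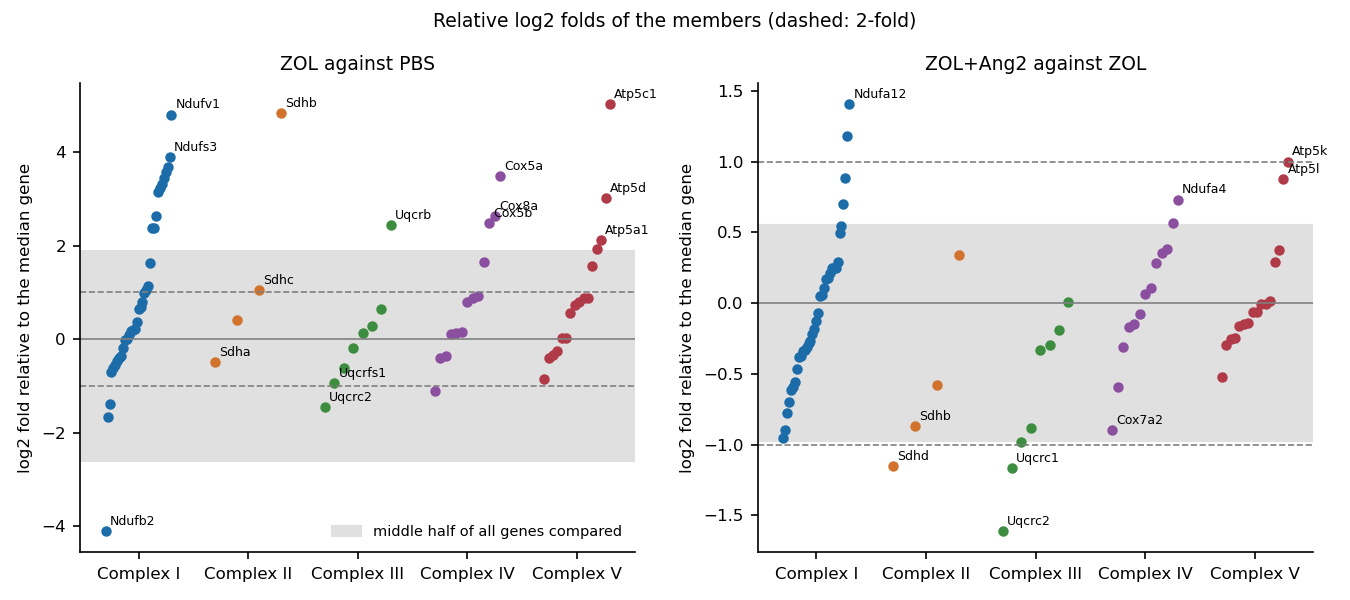
Relative log2 folds of the 76 genes compared, by complex, for ZOL against PBS and ZOL+Ang2 against ZOL; each point is a gene, sorted within its complex, dashed lines mark 2-fold and the grey band is the middle 50% of all genes compared. The vertical scales differ: the points span -4.10 to 5.02 in the former comparison and -1.61 to 1.41 in the latter, where the lowest points are Uqcrc2 and Uqcrc1.

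By complex, the median relative log2 fold in ZOL against PBS was 0.65 for complex I, 0.73 for II, -0.03 for III, 0.79 for IV and 0.76 for V. Complex IV had 0.88 with Ndufa4l2, which had 0 PBS reads, set to its lower bound. In ZOL+Ang2 against ZOL the medians were -0.13, -0.72, -0.60, 0.07 and -0.06 in the same order. Complexes II and III were below 0 there under every alternative setting (from -0.74 to -0.37 and from -0.98 to -0.25), while the sign of complexes I, IV and V changed with the setting. In ZOL against PBS the sign of complex III changed with the setting as well, from -0.62 to 0.91.

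Complex I was described by its parts, starting with the core subunits, which include those that carry the flavin and the iron-sulfur clusters. The core genes described here ran from 0 to 277 CPM in PBS, from 72.2 to 262 in ZOL and from 88.5 to 219 in ZOL+Ang2. Per length they also differed in every library, from 0 to 356, 5.92 to 85.5 and 8.18 to 108 RPKM. Ndufv1, which encodes the NADH-binding flavoprotein, had 0, 4115 and 1821 reads, or 0, 262 and 208 CPM. Ndufs7, an iron-sulfur subunit next to the quinone site, had 0, 1848 and 1922 reads, or 0, 118 and 219 CPM. Both were thus without a read in the PBS library and abundant in the others: against a floor of 3 PBS reads, Ndufv1 was at least 162-fold higher in ZOL and Ndufs7 at least 72.9-fold higher.

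Ndufs3, of the arm that leads to the quinone site, had 3, 2887 and 1249 reads, or 1.61, 184 and 142 CPM, a relative log2 fold of 3.90 in ZOL against PBS. Ndufs8, Ndufs1 and Ndufv2 did not follow these genes. Ndufs8, another iron-sulfur subunit, was highest in PBS with 277, 167 and 187 CPM, a relative log2 fold of -1.66. Ndufs1, the largest iron-sulfur subunit, had 46.8, 72.2 and 88.5 CPM and a relative log2 fold of -0.36, and Ndufv2, which carries a further cluster, had 71.0, 163 and 108 CPM and 0.20. These core genes were therefore split in PBS, with Ndufv1, Ndufs7 and Ndufs3 at 0 to 3 reads and Ndufs1, Ndufv2 and Ndufs8 at 87 to 515 reads.

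Between ZOL and ZOL+Ang2 all of these named core genes stayed within 2-fold. Ndufs7 had a relative log2 fold of 0.89, and Ndufv2 was lowest of the core at -0.55.

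Of the 9 accessory genes of the matrix arm, 4 (44.4%) were higher and none lower in ZOL against PBS. Over all genes compared the shares were 38% and 37.9%, so the higher share was near the background. Ndufa12 had 2, 867 and 1338 reads and Ndufa5 had 2, 872 and 563 reads. Ndufs6, an accessory subunit with a zinc site, had 3, 1898 and 955 reads. Ndufa7, with 34.4, 228 and 214 CPM, was the only higher one of the 4 that had more than 10 PBS reads, and its reads were not whole numbers in every library. In ZOL+Ang2 against ZOL, Ndufa12 had the highest relative log2 fold of all 76 genes, 1.41, and Ndufv3, an accessory subunit bound near the flavin, had the lowest of complex I, -0.95, with 176, 247 and 123 CPM. The Ndufa12 value also depends on a near-identical copy described further on.

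Of the 19 accessory genes of the membrane arm, 6 were higher and 2 lower in ZOL against PBS, and all 19 lay within 2-fold in ZOL+Ang2 against ZOL. The shares in ZOL against PBS were 31.6% and 10.5%, against 38% and 37.9% of all genes compared. Ndufa10, Ndufb11 and Ndufb5 had 4, 6 and 2 PBS reads. Ndufb9, which had 29 PBS reads, had 15.6, 239 and 336 CPM and a relative log2 fold of 2.63. The opposite extreme was Ndufb2, with 110, 34 and 26 reads, or 59.2, 2.17 and 2.96 CPM, and the lowest relative log2 fold of the whole group, -4.10. It was 27.3 (18.5 to 41.4) times as high in PBS as in ZOL by CPM, and it was lower in ZOL under the 9 alternative settings that kept it, of 10 that rescale or refilter the data. Ndufa1, at 87.2, 62.6 and 74.1 CPM, was the other lower gene, with a relative log2 fold of -1.39. Ndufb2 was the 1 gene of the 76 with more reads in the shallow PBS library than in ZOL. Its exon bases overlap those of Braf (146 bases) and Gm16272 (156 bases) on the opposite strand and Gm42420 (145 bases) on the same strand. The part of this overlap in its values was not tested.

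Complex II has 4 subunits, and 1 of them stood apart in PBS. Sdhb, the iron-sulfur subunit, had 3, 5593 and 1672 reads, or 1.61, 356 and 191 CPM, and a relative log2 fold of 4.83 in ZOL against PBS. Sdha, the flavoprotein that binds succinate, had 123, 169.8 and 214 CPM and -0.49. The membrane anchors were Sdhc with 45.2, 194 and 127 CPM and a relative log2 fold of 1.05, and Sdhd with 109.8, 286 and 125 CPM and 0.40. Catalytic partners that work as a pair therefore had 229, 2665 and 1875 reads for Sdha and 3, 5593 and 1672 reads for Sdhb.

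In ZOL+Ang2 against ZOL, 3 of the 4 were below the median gene. Sdhd was past 2-fold at a relative log2 fold of -1.15, and its CPM was 2.30 (2.15 to 2.46) times as high in ZOL. Sdhb was at -0.87 and Sdhc at -0.58, both within 2-fold, and Sdha was at 0.34. Sdhd was at least 2-fold lower under 8 of 10 alternatives, and its highest relative log2 fold under any of them was -0.80.

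None of the 8 genes of complex III had 10 or fewer PBS reads. Uqcrc1 and Uqcrc2, the core proteins that face the matrix and resemble processing peptidases, had 314, 738 and 322 CPM and 192, 133 and 39.6 CPM. Uqcrfs1, the Rieske iron-sulfur protein that hands electrons to cytochrome c1, had 168, 168 and 81.5 CPM. In ZOL+Ang2 the values of all 3 were lower than in ZOL, with relative log2 folds of -1.17, -1.61 and -0.98. Uqcrc2 and Uqcrc1 were past 2-fold and Uqcrfs1 just short of it. By CPM, ZOL+Ang2 was 0.298 (0.265 to 0.334) times ZOL for Uqcrc2, 0.436 (0.419 to 0.455) times for Uqcrc1 and 0.485 (0.446 to 0.527) times for Uqcrfs1.

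Uqcrc2 was lower past 2-fold under all 10 alternatives and Uqcrc1 under 8 of 10. Uqcrfs1 passed 2-fold under 1 of 10. Uqcrc2 was also lower in ZOL than in PBS, at a relative log2 fold of -1.46 that passed 2-fold under 7 of 10 alternatives, so it was highest in PBS and lowest in ZOL+Ang2, while Uqcrc1 was highest in ZOL. The 5 small subunits of complex III all lay within 2-fold in ZOL+Ang2 against ZOL, from Uqcrq at -0.88 to Uqcr10 at 0.01. Uqcrb, which binds near the quinone site, was the 1 gene of complex III at least 2-fold higher in ZOL than in PBS, with 22, 2674 and 1192 reads, or 11.8, 170.3 and 136 CPM, and a relative log2 fold of 2.44.

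Cyc1, which encodes cytochrome c1 and is left out by the symbol rule, had 206, 231 and 106 CPM and a relative log2 fold of -1.07 in ZOL+Ang2 against ZOL. The mitochondrially encoded partner of this complex, mt-Cytb, had -0.74 there. Beside these values, 9 of 12 endothelial markers were at least 2-fold lower in ZOL+Ang2 than in ZOL and none was higher, with summed levels of 3523 and 1717 CPM. In the same comparison 5 of 5 erythroid markers compared, 10 of 12 leukocyte markers and 6 of 7 fibroblast markers were at least 2-fold higher. Of all genes compared, 16.5% were higher and 24.6% lower there. The part of these markers in the lower complex III and Sdhd values was not tested.

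Promoters are shown for Uqcrc1, Uqcrfs1 and Sdhd, which were lower in ZOL+Ang2 than in ZOL, and for Ndufa12 and Atp5k, which were higher, to set the letters of genes on both sides next to each other. The sequences are from RefSeq (GRCm38.p6) and run from 250 bases before the start to 50 after it. Capitals mark matches to an NRF1 motif (GCATGCGC), an ETS-family motif (CCGGAAG) or a YY1 motif (AAGATGGC) on either strand. NRF1, the ETS factor GABP and YY1 are known regulators of respiratory chain genes. Each is written 5′ to 3′ along the gene's strand.
Uqcrc1 (chr9:108936398-108936697, plus strand): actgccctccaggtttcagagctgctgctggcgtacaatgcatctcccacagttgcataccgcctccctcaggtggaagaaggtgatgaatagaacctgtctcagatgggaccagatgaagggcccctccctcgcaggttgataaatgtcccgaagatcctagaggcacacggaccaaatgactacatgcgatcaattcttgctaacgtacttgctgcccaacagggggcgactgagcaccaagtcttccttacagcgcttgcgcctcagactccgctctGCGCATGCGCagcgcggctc
Uqcrfs1 (chr13:30545267-30545566, minus strand): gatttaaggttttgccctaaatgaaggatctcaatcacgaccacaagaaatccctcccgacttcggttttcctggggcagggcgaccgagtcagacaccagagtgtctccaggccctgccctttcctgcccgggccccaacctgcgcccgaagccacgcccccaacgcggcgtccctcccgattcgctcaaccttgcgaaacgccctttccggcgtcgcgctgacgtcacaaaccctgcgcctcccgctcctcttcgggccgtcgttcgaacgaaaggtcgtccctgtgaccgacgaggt
Sdhd (chr9:50603800-50604099, minus strand): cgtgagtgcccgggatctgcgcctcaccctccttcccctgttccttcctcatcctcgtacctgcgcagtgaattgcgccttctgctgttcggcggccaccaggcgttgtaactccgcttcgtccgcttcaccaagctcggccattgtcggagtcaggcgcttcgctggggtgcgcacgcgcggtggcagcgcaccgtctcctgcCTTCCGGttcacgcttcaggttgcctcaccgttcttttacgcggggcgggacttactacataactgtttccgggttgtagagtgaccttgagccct
Ndufa12 (chr10:94198785-94199084, plus strand): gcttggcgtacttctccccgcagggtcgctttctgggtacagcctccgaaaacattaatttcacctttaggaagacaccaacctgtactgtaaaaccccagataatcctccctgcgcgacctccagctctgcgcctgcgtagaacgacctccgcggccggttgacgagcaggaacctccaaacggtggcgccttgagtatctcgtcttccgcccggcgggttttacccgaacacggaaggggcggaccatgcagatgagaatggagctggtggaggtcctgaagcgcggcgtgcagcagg
Atp5k (chr5:108434350-108434649, minus strand): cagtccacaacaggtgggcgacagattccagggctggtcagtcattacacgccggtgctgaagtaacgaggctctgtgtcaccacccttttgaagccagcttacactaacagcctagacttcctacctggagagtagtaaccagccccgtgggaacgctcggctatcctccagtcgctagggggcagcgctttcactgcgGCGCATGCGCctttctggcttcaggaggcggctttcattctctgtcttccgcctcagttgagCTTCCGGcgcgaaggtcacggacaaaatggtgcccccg
Uqcrc1 and Atp5k, which lay on opposite sides of the median gene, both carried the NRF1 motif. The run in capitals there is a palindrome, so the motif matches on both strands with overlap. Atp5k also carried an ETS match and so did Sdhd. Uqcrfs1 and Ndufa12 held none of these letters, which says nothing beyond this window.

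Of the 84 symbols, 66 had a promoter in the table. The NRF1 motif was present in 15.2% of the 66 and in 3.05% of all 27025 genes with a promoter, the ETS motif in 24.2% and 9.93%, and the YY1 motif in 13.6% and 3.19%. YY1 matches were found in 7 of 31 complex I genes, 2 of 13 complex V genes and none of the genes of complexes II, III and IV. These are counts of letters, with no measurement of binding.

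Complex IV has broad isoforms, which most tissues use, and isoforms known from restricted tissues such as heart, skeletal muscle or testis. Of the 11 broad or single-gene subunits, 4 were higher in ZOL than in PBS and 1 was lower, and all 11 lay within 2-fold between ZOL and ZOL+Ang2. The shares in ZOL against PBS were 36.4% and 9.09%, against 38% and 37.9% of all genes compared. Cox5a, a subunit on the matrix side, had 1, 1783 and 869 reads, or 0.538, 114 and 99.1 CPM, and a relative log2 fold of 3.48. Cox5b, which carries a zinc ion, had 30, 3491 and 1826 reads, or 16.1, 222 and 208 CPM, at 2.49. Cox8a had 57.6, 740.3 and 588 CPM at 2.63, and Cox7a2 had 68.9, 440.1 and 231 CPM at 1.65. All of these but Cox5a thus had more than 10 PBS reads.

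The exon bases of Cox5a overlap those of Gm26631 on the opposite strand over 269 bases, and Gm26631 was listed at 28.2 RPKM in PBS and at 0 in ZOL. The kit is not described as keeping strand, so reads of these bases cannot be assigned to a gene. Cox5a is not alone in this. Ndufb11 shares 117 exon bases with Rbm10 on the opposite strand, listed at 83.4 RPKM in PBS and 12.9 in ZOL. Ndufb5 shares 616 with Mrpl47, listed at 0 and 12.6 RPKM. Cox6c and Cox7c, both small membrane subunits, had 145, 525 and 665 CPM and 26.9, 111 and 144 CPM, and their relative log2 folds of 0.88 and 0.92 lay within 2-fold. Ndufa4, a late-joining subunit, was the lower gene in ZOL against PBS, with 169.5, 151 and 250.1 CPM and -1.11. It passed 2-fold under 5 of 10 alternatives, and its plain CPM ratio was 0.888 (0.789 to 1.00). In ZOL+Ang2 against ZOL it had the highest relative log2 fold of complex IV, 0.73. Cox7a2 had the lowest there, -0.90. Cox7a2l, which tethers complexes III and IV, had 323, 482 and 429 CPM and stayed within 2-fold in all 3 comparisons.

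Most restricted isoforms were at 0 in every library. Cox4i2, the lung and low-oxygen form, Cox6a2 and Cox7a1, the heart and muscle forms, Cox7b2 and Cox8c had 0 reads in all 3 libraries, which allows up to 1.61, 0.191 and 0.342 CPM for each. Cox6b2 had 0, 4 and 0 reads. Cox8b, a heart and muscle form, had 0, 80 and 0 reads, so its 0, 5.10 and 0 CPM came from the ZOL library alone. The broad partner Cox6b1 had 205, 299 and 309 CPM and Cox7b had 122, 258 and 167 CPM.

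Ndufa4l2, which is known as a HIF1 target and relative of Ndufa4, had 0, 181 and 168 reads, or 0, 11.5 and 19.2 CPM. At the ZOL level 21.4 reads would have been found in PBS, and ZOL was at least 7.14-fold higher. Its CPM was 1.66 (1.34 to 2.06) times as high in ZOL+Ang2 as in ZOL. Of 8 compared genes linked to low oxygen, 4 were higher and 3 lower in ZOL against PBS, and 2 were higher and 2 lower in ZOL+Ang2 against ZOL. Over all genes compared the shares were 38% and 37.9% in the former comparison and 16.5% and 24.6% in the latter. Hif1a, which encodes the oxygen-regulated factor itself, had 5.38, 157 and 29.4 CPM.

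In the ATP synthase the F1 head, which makes ATP, and the membrane ring, through which protons pass, differed. All 5 genes of the head were above the median gene in ZOL against PBS, 4 of them past 2-fold, against 38% of all genes compared. Atp5c1, the gamma subunit that turns inside the head, had 7, 8488 and 3924 reads, or 3.77, 541 and 447 CPM, and the highest relative log2 fold of the 76 genes, 5.02, with a CPM ratio of 144 (69.6 to 357). The 5 CPM added before logs shrinks the folds of genes with few PBS reads and so bears on this order. By plain CPM ratio Sdhb, at 221 (75.5 to 1070), and Cox5a, at 211 (37.8 to 8341), stood above Atp5c1. Atp5d (delta) had 14.5, 298 and 293 CPM at 3.02, Atp5a1 (alpha) had 84.5, 743 and 619 CPM at 2.12, and Atp5b (beta, the catalytic subunit) had 252, 1866 and 1838 CPM at 1.92. Atp5e (epsilon), with 64.6, 191 and 246 CPM, lay within 2-fold at 0.55. Atp5b took the most reads of any of the 85 genes in ZOL and in ZOL+Ang2.

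The 3 genes of the c-ring, which encode the same mature protein with different import signals, all stayed within 2-fold in all 3 comparisons. Atp5g1 had 83.4, 137 and 137 CPM, Atp5g2 had 112, 225 and 153 CPM and Atp5g3 had 108, 158 and 149.6 CPM. Their relative log2 folds in ZOL against PBS were -0.26, 0.03 and -0.41, against a median of 2.12 for the 5 genes of the head. No replicate error could be set beside that difference between the head and the ring.

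Of the 8 stalk and membrane genes compared, Atp5f1 (subunit b) was the only one at least 2-fold higher in ZOL than in PBS, with 60.8, 367 and 295 CPM and 1.56. The first Atp5o identifier, which encodes OSCP, the link between stalk and head, had 25.8, 92.5 and 82.4 CPM at 0.72. Atp5mpl, a small membrane subunit, had the lowest value of complex V, -0.84, with 125, 134 and 126 CPM. In ZOL+Ang2 against ZOL, Atp5k (subunit e, which helps synthase dimers form) had 11.3, 49.6 and 103 CPM and a relative log2 fold of 1.00, at the limit of 2-fold, and passed it under 7 of 10 alternatives. Atp5l (subunit g), its partner in the dimer, was just inside at 0.88 with 64.6, 131 and 241 CPM. Atp5g2 was lowest of complex V at -0.52. Atp5s, a gene for a factor B-like protein, had 0, 135 and 96 reads and averaged under 10 CPM.

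In the PBS library some genes had almost no reads while partners in the same complex had many. Of the 76 genes compared, 14 had at most 10 PBS reads: 10 of 35 in complex I, 1 of 4 in complex II, none of 8 in complex III, 2 of 13 in complex IV and 1 of 16 in complex V. At their ZOL level they would have had 21.4 to 1005 PBS reads, with a median of 245.5. In ZOL they ranged from 11.5 to 541 CPM with a median of 132 CPM, against 173 CPM for the other 62. They included genes low in ZOL, such as Ndufa4l2, and genes as high as Atp5c1.

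Without the 14, the median relative log2 fold in ZOL against PBS was 0.16 and 44 of 62 lay within 2-fold. The 14 themselves had a median of 3.47, which their choice by low PBS reads fixes. In ZOL+Ang2 against ZOL, a comparison that does not use PBS, their median was -0.18 against -0.11 for the other 62, and 12 of 14 lay within 2-fold.

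The same feature was seen outside these genes. Among genes with at least 100 CPM in both ZOL and ZOL+Ang2, 9 of 53 oxidative phosphorylation genes (17.0%) and 365 of all 1384 genes (26.4%) had at most 10 PBS reads. No PBS read at all was found for 2 of the 53 and for 88 of the 1384. The share was therefore no higher here than over all abundant genes. With all libraries thinned to the depth of PBS, the counts of higher and lower genes stayed within 1.5 times of those given above. Whether these genes were silent in the PBS cells or lost before sequencing was not tested.

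**Figure D3:**
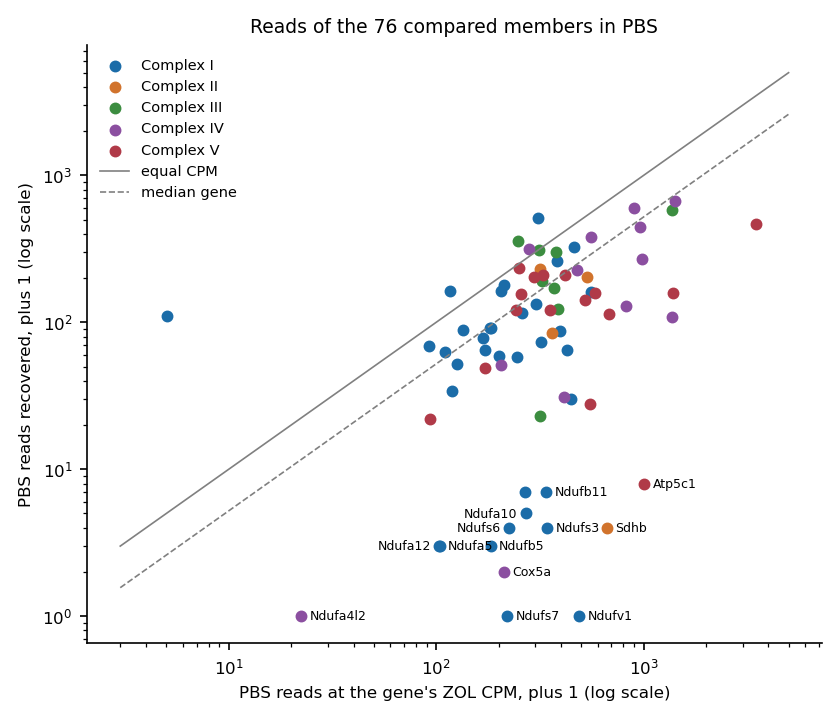
PBS reads of the 76 genes (vertical, log scale, 1 read added) against the reads each would have in PBS at its ZOL CPM (horizontal, log scale, 1 added), coloured by complex; the full line marks equal CPM and the dashed line the median gene. The 14 genes with at most 10 PBS reads lie below both lines. Of the other 62, 44 lie within 2-fold of the median gene, Atp5d and Ndufb9 are among those well below it, and Ndufb2, at 110 PBS reads and 34 ZOL reads, lies far above.

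Near-identical copies bear on some of these levels, because many of these genes have left processed copies in the genome whose reads the deposited values assign separately. Of the 84 genes other than the second Atp5o identifier, 23 share a stretch of at least 100 bases at 95% identity or more with another annotated gene, at least 50 of these bases coding, and there are 45 such copies in all. The copies summed to 174, 479 and 577 CPM, against 1451, 4813 and 4639 CPM for the 23 genes. For Atp5g1 and Ndufa12 the copy had more reads than the gene in at least 1 library, and these pairs are printed to show how alike the gene and its copy are. For Atp5g1 and Gm10039 the window is the first 51 bases of the coding sequence, which do not differ. In the Ndufa12 window the capital marks the 1 base that differs.
Atp5g1: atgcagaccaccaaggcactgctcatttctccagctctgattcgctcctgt
Gm10039: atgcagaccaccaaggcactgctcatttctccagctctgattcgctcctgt
Ndufa12: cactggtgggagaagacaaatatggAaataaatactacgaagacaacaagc
Gm15920: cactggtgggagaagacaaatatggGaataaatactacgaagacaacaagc
Gm10039 matches Atp5g1 at 99.8% over 411 bases and lies on chr11:100361716-100362126 (mm10). Gm15920 matches Ndufa12 at 99.5% over 402 bases and lies on chr5:130188395-130188796.

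Gm10039 had 53.3, 156 and 187 CPM where Atp5g1 had 83.4, 137 and 137 CPM, so the copy took 39.0%, 53.2% and 57.7% of the reads of the pair. Gm15920 had 3.23, 94.3 and 127 CPM where Ndufa12 had 1.08, 55.2 and 153 CPM. The pair of Ndufa12 and its copy had fewer reads in PBS than in the other libraries, as the gene alone did. Adding the reads of copies to their genes lowered the relative log2 fold of Ndufa12 in ZOL+Ang2 against ZOL to 0.90, which is within 2-fold. Other genes with over 20% of the summed reads on copies in ZOL were Cox7c with 27.5% and Atp5l with 23.5%.

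**Figure D4:**
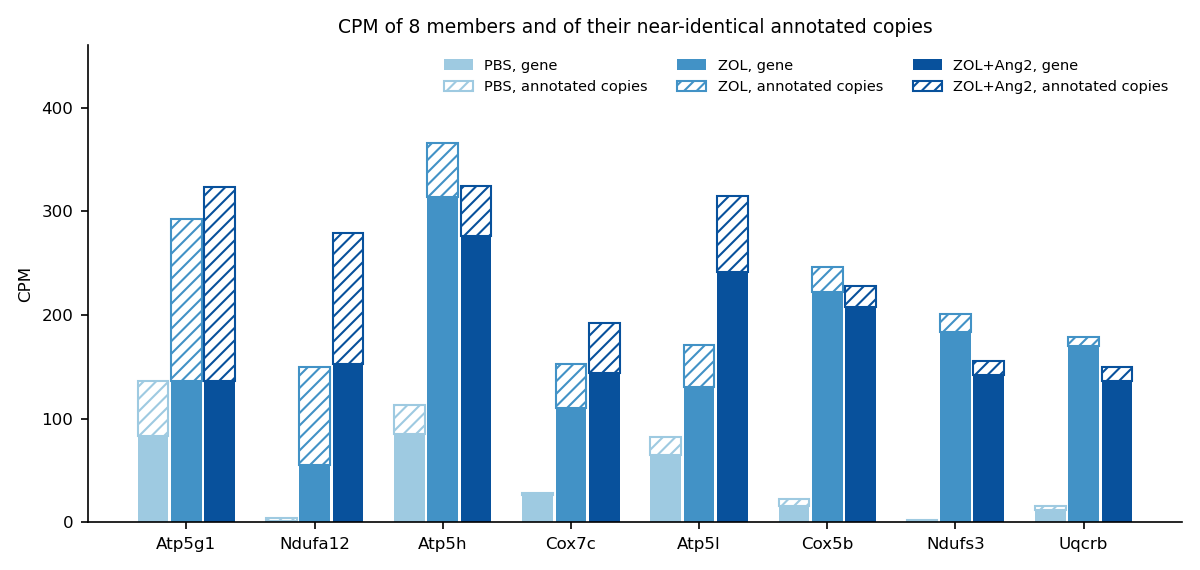
CPM of 8 genes (filled) and of their near-identical annotated copies (hatched, stacked on top) in the 3 libraries. Atp5g1 and Ndufa12 are the genes whose copies reach the height of the gene itself; in Atp5h, Cox7c, Atp5l, Cox5b, Ndufs3 and Uqcrb the gene is the larger part in every library.

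Genes that work beside the complexes were counted in the same way. The background for each count is 38% higher and 37.9% lower in ZOL against PBS. In ZOL+Ang2 against ZOL it is 16.5% and 24.6%. Of 10 mitochondrially encoded genes compared, all 10 were at least 2-fold lower in ZOL than in PBS and none passed 2-fold between ZOL and ZOL+Ang2. mt-Nd4, a proton-pumping subunit of complex I, had 11854, 6198 and 2750 reads, or 6379, 395 and 314 CPM, and the lowest relative log2 fold of the list, -4.94, and mt-Nd6 had the highest, -2.92. For complex I the nuclear genes summed to 1690 CPM and the mitochondrial ones to 21560 CPM in PBS, against 4648 and 2318 CPM in ZOL. Complex V was the exception in size, since mt-Atp6 and mt-Atp8 together had 140.5, 26.8 and 26.6 CPM.

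Assembly factors help to build the complexes and are not part of them. Of 30 compared, 7 were higher and 9 lower in ZOL+Ang2 against ZOL, so 46.7% lay within 2-fold against 92.1% of the subunit genes and 58.9% of all genes. In ZOL against PBS 12 were higher and 7 lower, or 40% and 23.3%, against 38% and 37.9% of all genes compared. Their summed level was low, at 792, 1226 and 1204 CPM over 46 genes, and the sets set beside each other here were not matched for level. Tmem126b, a complex I assembly factor, had 0, 0 and 580 reads, and Ndufaf1, of the same process, had 0, 114 and 574 reads. Uqcc1, which helps cytochrome b to be made for complex III, had 0, 619 and 1 reads, and Nubpl, which delivers iron-sulfur clusters to complex I, had 25, 445 and 1 reads. Tmem126b and Ndufaf1 were the highest of the list in ZOL+Ang2 against ZOL, and Uqcc1 and Nubpl the lowest.

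Of 17 genes of the tricarboxylic acid cycle and pyruvate dehydrogenase, 12 were higher and 1 lower in ZOL against PBS, and 1 was higher and 3 lower in ZOL+Ang2 against ZOL. The shares were 70.6% and 5.88%, against 38% and 37.9% of all genes compared, and then 5.88% and 17.6%, against 16.5% and 24.6%. Ogdh, a subunit of the oxoglutarate dehydrogenase, had 1.08, 251 and 107 CPM, and Suclg1, of succinyl-CoA ligase, had 0, 189 and 112 CPM. Dlst, the partner of Ogdh, had 3.23, 164 and 1.94 CPM and the lowest relative log2 fold of the list in ZOL+Ang2 against ZOL, -4.59. Ogdh and Dlst thus had few reads in PBS, and Dlst also in ZOL+Ang2.

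Among 12 carriers compared, 6 were higher and 1 lower in ZOL against PBS, and none was higher and 3 were lower in ZOL+Ang2 against ZOL. The former shares were 50% and 8.33%, against 38% and 37.9% of all genes compared. The 25% lower in the latter was near the background of 24.6%. The phosphate carrier Slc25a3 had 4, 7999 and 2294 reads and the ADP/ATP carrier Slc25a4 had 16, 10668 and 5645 reads, the highest pair of that list in ZOL against PBS at 5.23 and 4.71. Cycs, cytochrome c, had 52.2, 98.1 and 95.2 CPM and stayed within 2-fold in both. Of 9 genes for coenzyme Q compared, 6 were higher and 2 lower in ZOL against PBS, and none was higher and 4 lower in ZOL+Ang2 against ZOL, where Coq9 and Pdss1 had 0 reads in ZOL+Ang2 after 826 and 417 in ZOL. The former shares were 66.7% and 22.2%, against 38% and 37.9% of all genes compared. In the latter 44.4% were lower, against 24.6%.

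Of 10 compared regulators of mitochondrial biogenesis, 5 were higher and 2 lower in ZOL against PBS, and 3 were higher and 3 lower in ZOL+Ang2 against ZOL. The shares were 50% and 20%, against 38% and 37.9% of all genes compared, and then 30% and 30%, against 16.5% and 24.6%. Tfam, which packages mitochondrial DNA, had 0, 629 and 2 reads. Gabpa, the DNA-binding part of GABP, had 0, 834 and 159 reads, and Nrf1 had 0, 635 and 370 reads. Polg, the mitochondrial DNA polymerase, was lowest in ZOL against PBS with 158, 33.1 and 32.7 CPM. Gabpa and Nrf1 had 0 PBS reads, and Ppargc1a, a coactivator of this program, had reads mainly in PBS (35, 0 and 4 reads).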

How the data were processed

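RNA of 3 pools of dural cells, 1 library each, was analysed, grouped by the treatment label. Per the labels' protocols, full-length cDNA was amplified and libraries were made by transposition. The deposited files hold RPKM values, which the authors made from gene lengths and a library total that is not defined in the sources at hand. Tools named per the submitters' processing notes are featureCounts 2.0.6, HISAT2 2.2.1 and fastp, with the mm10 genome. Reads were recovered as RPKM times exon length in GENCODE M21 over a step per library (96.9%, 96.4% and 96.2% of values whole within 0.01). They were 1.50, 0.701 and 0.785 times the totals implied by the steps, so they may differ from the authors' counts. The annotation lacked 37 genes.

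Reads were scaled by the TMM formula (factors 1.11, 0.946 and 0.953, trims of 30% and 5%) to CPM, genes averaging 10 CPM were compared (10942), and 5 CPM was added before logs. The all-gene median was subtracted because TMM left it off 0. No test was run, as each group is 1 library. The floor for 0 reads is 3 reads. Intervals and floors cover counting error only, since the reads carry no molecular identifiers.

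Genes were named by rule: the highest and lowest of each complex and comparison among those averaging 20 CPM, fixed catalytic subunits and isoform pairs, the 5 highest per library, and those at 0 reads in 1 library with 100 CPM in another. Ndufa1, Ndufa5, Ndufa7, Ndufa10, Ndufb5, Ndufb9, Ndufb11, Ndufs6, Uqcrq, Atp5f1, Atp5l, Atp5s, Tfam, Ppargc1a, Hif1a, Cycs and Cyc1 were named after their values were seen. Some genes that the rule names are not reported here. The members and lists were chosen with earlier results of these data known. Copies were found with BLAST+ 2.17.0. Python 3.11.15, pandas 2.3.3 and scipy 1.17.1 were used. The steps were tested on simulated reads. Alternative settings are described at the end; adding copies' reads and leaving out genes that share exon bases were chosen after seeing the data.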

Additional observations from a re-analysis of the deposited data

How the results depend on the processing

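No paired analysis was possible because each group is 1 library, and for the same reason no replicate could be left out. No value past 2-fold changed direction under the alternatives run. For ZOL against PBS, the median relative log2 fold of 0.60 became 1.54 without subtracting the all-gene median, 1.29 on the RPKM values as deposited with 1 added, and 1.33 with a filter of 1 CPM, while the genes at least 2-fold higher went from 26 to 50, 41 and 45 and the lower ones from 5 to 1, 2 and 1 under these settings. These settings kept 76, 78 and 78 of the genes. Of all genes compared, 49.2%, 38.6% and 35.5% were then higher and 29.4%, 41.7% and 34.9% lower. With a filter of 50 CPM the median fell to 0.136, its lowest value, and that of complex IV from 0.79 to 0.0041. There 10 of 71 genes were lower, against 33.5% of all genes compared. For ZOL+Ang2 against PBS, a filter of 50 CPM gave a median of 0.077 with 21 higher and 13 lower of 71, against 0.96, 38 and 4. Of all genes compared under that filter, 37.1% were higher and 34.3% lower. In the same comparison 23 of 53 were higher with the 23 genes that have near-identical copies left out, against 39.1% of all genes compared. Without subtracting the median 2 were lower, against 33.1% of all genes, and also 2 with a filter of 1 CPM, against 34.9%. For ZOL+Ang2 against ZOL, 3 higher genes became 5 with median-of-ratios factors, 7 with upper-quartile factors, 5 on RPKM, 1 with copied genes left out and 1 with the copies' reads added. Of all genes compared, 17.2%, 22.2%, 16.2%, 16.5% and 16.5% were higher in the same order. The 3 lower genes became 1 with either other scaling, where 19.4% and 19.2% of all genes were lower. Some of these shifts follow from the arithmetic. Not subtracting the all-gene median moves every gene by the same amount. A filter in CPM also moves each gene it keeps by the same amount, because it changes the median that is subtracted. Leaving genes out lowers counts by construction. The cause of the other shifts was not tested. Depth limits PBS most: a gene at 0 reads there may reach 1.61 CPM, against 0.191 CPM for ZOL.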
